A study of Mus musculus with 2 samples.

Results

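The 9 interferon response genes Isg15, Ifit1, Ifit2, Ifit3, Irf7, Stat2, Usp18, Zbp1 and Oasl2 were listed by symbol and looked up among the 19465 genes counted in the heart sections. Of the 9, 8 were measured, and Isg15 was not analysed here. The rule that names them uses no measured value, although they were picked with earlier results of these data known.

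Type I interferons bind a receptor on nearly every cell type and activate the transcription factor ISGF3, which contains STAT2 and IRF9. ISGF3 binds a short DNA element in target gene promoters, the interferon-stimulated response element. The targets include antiviral effectors and regulators that amplify or end the signal. DNA that leaves the nucleus or mitochondria can start the same program through the sensor cGAS and the adaptor STING, and an interferon response has been described in injured heart muscle. The question here was whether such a response, as DNA damage can cause, was visible in hearts with induced TOP2B, a topoisomerase that cuts and rejoins DNA.

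Gene expression was measured by Visium CytAssist, in which probe pairs for each gene are captured from a formalin-fixed section on barcoded spots and counted as unique molecular identifiers (UMIs). A spot covers several cells, so its counts can mix cell types. The control section came from 1 α-MHC-MerCreMer+/− heart and the transgenic section from 1 α-MHC-MerCreMer+/− hTOP2BLSL/− heart, and both mice carried the same Cre allele and received a single intraperitoneal dose of tamoxifen at 80 mg/kg. In this model tamoxifen activates a Cre recombinase made in cardiomyocytes from the α-MHC promoter, which removes a stop cassette in front of a human TOP2B cDNA driven by the CAG promoter at Rosa26. The model was induced at 6 weeks of age, and the age at collection, the sex and the time from the dose to collection of these animals are not given in the sources used here. With 1 section of each genotype no test was possible, so genotype cannot be told apart from animal, block, section and library, and every difference below is a difference between these sections.

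The files held 1256 control spots with 14376300 UMIs in all and 924 transgenic spots with 12953389 UMIs in all. The median depth per spot was 11336 and 14531 UMIs, and 1 transgenic spot had none. UMIs were summed per section and expressed per 1000000 UMIs of that section (CPM). Ranges in parentheses are 95% intervals for counting error alone, and log2 ratios are transgenic over control CPM. Over the 15236 genes with at least 20 UMIs in all, the median log2 ratio was 0.20 and 63.2% of genes were higher in the transgenic section. With edgeR's TMM factors every log2 ratio was lower by about 0.16, and 52.4% of all genes were higher. Heart muscle was the tissue seen in both, since 5 cardiomyocyte genes such as Myh6 and Tnnt2 summed to 40199 CPM in the control section against 24903 CPM in the transgenic section. Mouse Top2b, whose probes are designed on the mouse gene and are therefore no clear check of the human transgene, stood at 106 CPM in the control section against 102 CPM in the transgenic section.

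The response element can be looked for in the promoters of the members. Its core, written GAAA, any 2 bases and GAAA again and read on both strands, was searched in RefSeq promoter windows (assembly GRCm38.p6) that run from 250 bases before to 50 bases after each gene's start. Windows were available for 7 of the 9 members, and 4 of these, Isg15, Ifit1, Ifit3 and Stat2, held the core. Over all 27025 genes with a window the share was 3.99%. It was 48.8% for the other type I interferon targets and 55% for the interferon-gamma targets, 2 lists described below. Of further lists described below, the interferon ligands also had 55%. The share was 6.25% for p53 targets, 4.76% for nucleic acid sensors and adaptors, and 0% for receptor and signaling genes. The 3 stretches below are shown because the members that hold the core differ in their ratio, with Ifit1 and Ifit3 higher in the transgenic section and Stat2 not. Each is written 5′ to 3′ on the gene's strand, and capitals mark the core, here seen as its reverse complement.
Ifit1, plus strand, chr19:34640760-34640838: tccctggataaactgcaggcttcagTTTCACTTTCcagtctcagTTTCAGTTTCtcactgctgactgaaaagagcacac
Ifit3, plus strand, chr19:34583348-34583441: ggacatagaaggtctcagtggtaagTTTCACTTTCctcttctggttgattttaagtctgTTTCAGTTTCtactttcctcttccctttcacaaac
Stat2, plus strand, chr10:128270251-128270310: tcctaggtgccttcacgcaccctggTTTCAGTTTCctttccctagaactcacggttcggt
Ifit1 and Ifit3 each held 2 separate cores, the nearer at 85 and 122 bases before the start, and Stat2 held 1 core at 222 bases before it. Isg15 held 3 overlapping cores. The windows of Ifit2, Irf7 and Oasl2 did not hold these letters, and no window was at hand for Usp18 and Zbp1. Ifit2 and Oasl2, without the core, had the highest log2 ratios of the measured members, at 1.54 and 1.22. A match describes the letters and does not show a bound site.

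By CPM all 8 members were higher in the transgenic section, against 63.2% of all genes. With TMM or DESeq2 factors 7 were higher, against 52.4% and 52.6% of all genes, and Stat2 was lower. By CPM the counting interval lay above 0 for 7 of the 8 members, against 39.4% of all genes. At least 2-fold higher were 3 members, against 13.7% of all genes. Their median log2 ratio was 0.89, which was 0.69 above the median of all genes. Together they had 1496 UMIs, or 104 CPM (98.9 to 109), in the control section and 2497 UMIs, or 193 CPM (185 to 200.5), in the transgenic section. The sum was thus 1.85-fold (1.74 to 1.98) higher in the transgenic section, with a log2 ratio of 0.89 (0.80 to 0.98).

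**Figure D1:**
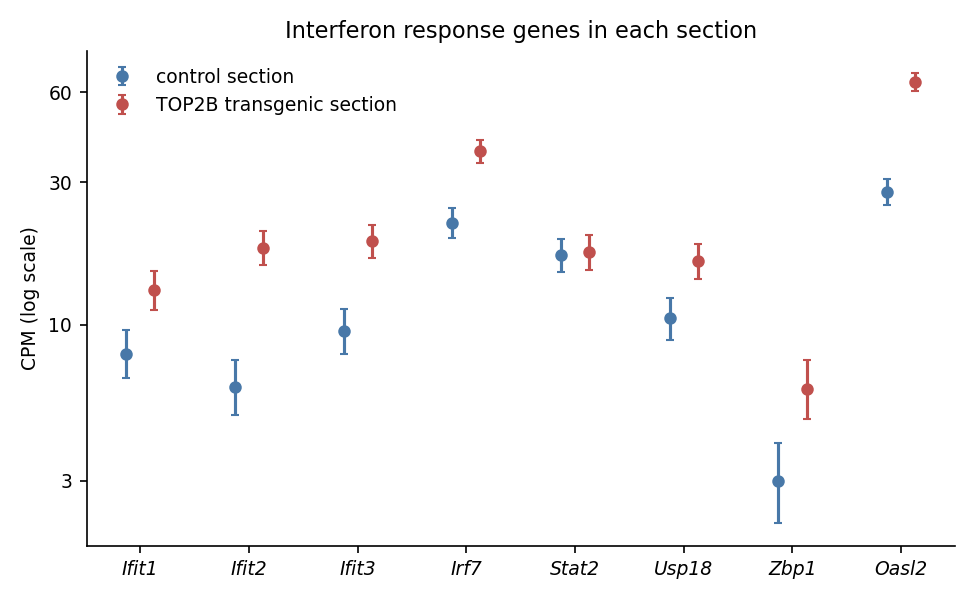
CPM (log scale) of the 8 measured interferon response genes in the control section (blue) and the TOP2B transgenic section (red), with 1 section each. Bars are exact Poisson 95% intervals for counting error. The transgenic point lies above the control point for each gene. The gap is widest for Ifit2, at 18.1 against 6.19 CPM, and narrowest for Stat2, at 17.4 against 17.1 CPM. For Stat2 the bars overlap almost fully and the order turns with TMM or DESeq2 factors.

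Of the 2 members that act as transcription factors, Irf7 was clearly higher in the transgenic section and Stat2 was level. Irf7 (ENSMUSG00000025498), the transcription factor that amplifies type I interferon production, had 315 UMIs or 21.9 CPM (19.6 to 24.5) in the control section against 492 UMIs or 38.0 CPM (34.7 to 41.5) in the transgenic section. Its log2 ratio was 0.79 (0.59 to 1.00). Stat2 (ENSMUSG00000040033), the subunit of ISGF3 that activates transcription, had 246 UMIs or 17.1 CPM (15.0 to 19.4) in the control section against 226 UMIs or 17.4 CPM (15.2 to 19.9) in the transgenic section. Its log2 ratio of 0.03 (-0.24 to 0.29) did not depart from 0 at this depth, and with TMM factors, with DESeq2's size factors or without the 50 most abundant genes it was below 0. Among all 8 members Stat2 had the lowest ratio.

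The Ifit genes encode proteins with tetratricopeptide repeats that bind foreign RNA and hold back its translation, and the 3 measured here lie in a cluster on chromosome 19. Ifit2 (ENSMUSG00000045932) had the highest ratio of the 8 members. It had 89 UMIs or 6.19 CPM (4.97 to 7.62) in the control section against 234 UMIs or 18.1 CPM (15.8 to 20.5) in the transgenic section, with a log2 ratio of 1.54 (1.19 to 1.91). Ifit3 (ENSMUSG00000074896) had 137 UMIs or 9.53 CPM (8.0 to 11.3) in the control section against 246 UMIs or 19.0 CPM (16.7 to 21.5) in the transgenic section, with a log2 ratio of 0.99 (0.69 to 1.31). Its near-identical neighbor Ifit3b was not analysed here, so the Ifit3 count may include molecules of that copy. Ifit1 (ENSMUSG00000034459) had 115 UMIs or 8.0 CPM (6.60 to 9.60) in the control section against 169 UMIs or 13.0 CPM (11.2 to 15.2) in the transgenic section, with a log2 ratio of 0.71 (0.36 to 1.06). Ifit1 and Ifit2 had ratios whose intervals did not overlap, while the interval of Ifit3 overlapped both.

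Oasl2 (ENSMUSG00000029561), a relative of the oligoadenylate synthetases that sense double-stranded RNA, was the most often counted member and so has the most precise ratio. It had 400 UMIs or 27.8 CPM (25.2 to 30.7) in the control section against 840 UMIs or 64.8 CPM (60.5 to 69.4) in the transgenic section, with a log2 ratio of 1.22 (1.05 to 1.40). Zbp1 (ENSMUSG00000027514), which binds nucleic acids in the Z form and can start necroptosis, had the fewest UMIs, so its ratio is the least precise. It had 43 UMIs or 2.99 CPM (2.17 to 4.03) in the control section against 79 UMIs or 6.10 CPM (4.83 to 7.60) in the transgenic section, with a log2 ratio of 1.03 (0.47 to 1.60). Usp18 (ENSMUSG00000030107), the protease that removes ISG15 from proteins and also quiets the interferon receptor, had 151 UMIs or 10.5 CPM (8.89 to 12.3) in the control section against 211 UMIs or 16.3 CPM (14.2 to 18.6) in the transgenic section. Its log2 ratio was 0.63 (0.32 to 0.94), so the negative regulator was higher along with the effectors.

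Each section was cut into 4 quadrants around the midpoint of the tissue to show the spread inside a section. The summed members ranged from 96.1 to 117 CPM over the control quadrants and from 162 to 217 CPM over the transgenic quadrants. For 6 of the 8 members the lowest transgenic quadrant lay above the highest control quadrant, against 30.3% of all genes. The exceptions were Stat2, at 13.3 to 21.0 CPM against 15.3 to 20.5 CPM, and Usp18, at 8.64 to 14.7 CPM against 13.0 to 19.4 CPM. For the sum, each transgenic quadrant lay above each control quadrant. At the tissue edge, where a spot lacks at least 1 of its 6 neighbors, the members summed to 111 CPM in the control section against 188 CPM in the transgenic section, and inside the tissue to 103 CPM and 195 CPM.

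More spots carried a member in the transgenic section. A UMI of any member was found in 64.2% (61.4 to 66.8) of control spots and 89.1% (86.9 to 91.0) of transgenic spots. Since transgenic spots were deeper, the expected share was also computed with each spot thinned to 8134 UMIs, which left 1116 control and 846 transgenic spots. The shares were then 54.3% and 77.8%. For Oasl2 the share of spots was 26.3% in the control and 55.7% in the transgenic section, or 19.7% and 40.6% after thinning. For Stat2 it was 18.0% and 22.0%, or 13.2% and 13.7% after thinning, so that the thinned shares were close to each other. For Zbp1 it was 3.34% and 8.12%, or 2.44% and 4.89% after thinning. At least 3 different members were seen in 107 control spots (8.52%) and 313 transgenic spots (33.9%), not thinned.

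**Figure D2:**
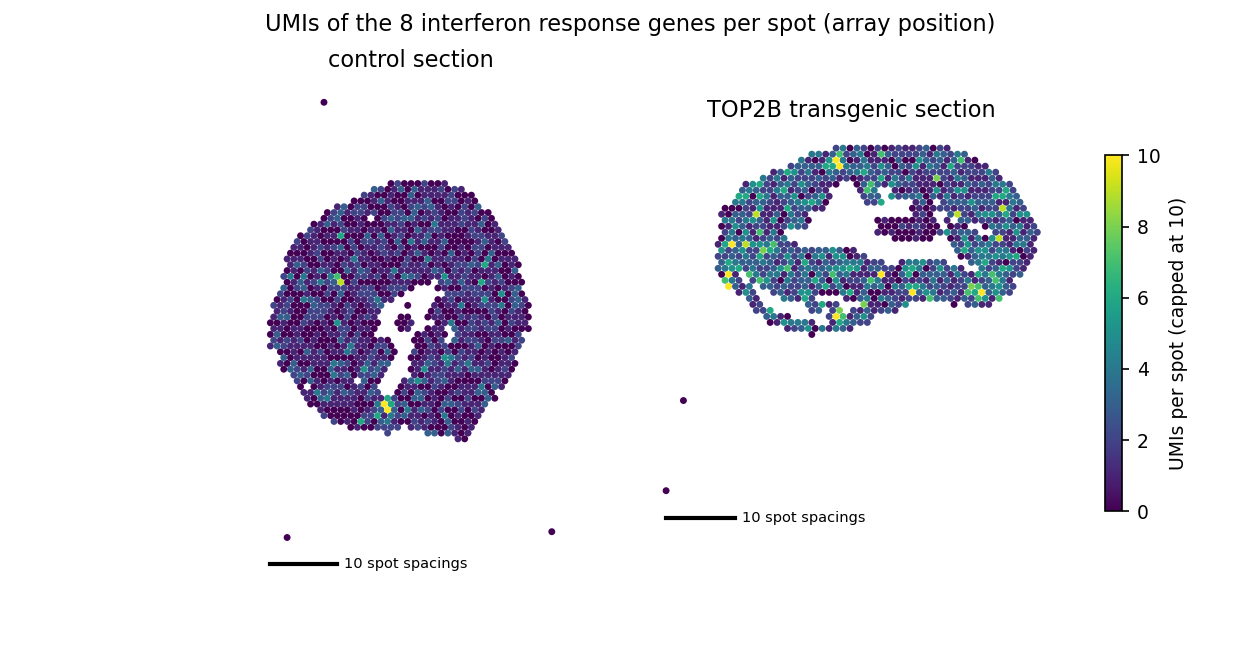
UMIs of the 8 measured members in each spot, placed by array position, for the control section (left) and the TOP2B transgenic section (right). Colors run from 0 to 10 UMIs, and higher counts are shown as 10. Brighter spots are spread over the whole transgenic wall, where the median spot held 2 UMIs against 1 in the control, and a small bright group lies at the lower rim of the control section. The 4 control and 2 transgenic spots without a neighbor held 0 member UMIs.

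Taken singly, the members showed little clustering over the tissue, and no clustering score was computed for their sum. Moran's I, the deposited score of spatial clustering, in which 0 means no clustering, ran from -0.005 for Zbp1 to 0.057 for Usp18 in the control section and from -0.002 for Stat2 to 0.041 for Irf7 in the transgenic section. Pearson correlations over spots between pairs of members ran from -0.01 to 0.14 over the 1256 control spots and from -0.04 to 0.12 over 923 transgenic spots, which share a library and are sparse. A few spots nevertheless stood far above the rest. The richest control spot held 24 member UMIs from all 8 members, and a spot beside it held 17, while the next had 9. In the richest control spot Usp18 had 6 UMIs, Irf7 had 5 and Ifit1 had 4, out of 11857 UMIs in the spot.

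The richest transgenic spot held 33 member UMIs, again from all 8 members, with 9 of Oasl2, 5 of Ifit2 and 5 of Ifit3 out of 21060 UMIs in the spot. Its 6 neighbors held 3 to 10. The next transgenic spots had 14 and 13. Other interferon genes were plentiful in these places too. The richest control spot held 46 UMIs of other type I targets and 39 of interferon-gamma targets, and the richest transgenic spot 69 and 21. In the control spot this was 3880 and 3289 CPM, against 1071 and 550 CPM over the section. In the transgenic spot it was 3276 and 997 CPM, against 1413 and 587 CPM. Macrophage markers had 3 UMIs in that control spot and 11 in that transgenic spot. This was 253 and 522 CPM, against 315 and 621 CPM over the sections. Lymphocyte markers had none in either spot, but at 17.3 CPM over each section a single spot would rarely hold one. The 10 richest spots of each section held 6.22% of the control and 5.21% of the transgenic member UMIs. Without them the members summed to 98.4 CPM and 185 CPM, an alternative added after these spots were seen.

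In a wider set of type I interferon targets the median ratio was smaller than in the members. Of 55 listed genes 49 were measured, and 39 of them (79.6%) were higher in the transgenic section against 63.2% of all genes. With TMM factors 36 were higher, against 52.4% of all genes. By CPM the counting interval lay above 0 for 28 and below 0 for 2, against 39.4% and 17.0% of all genes. Their median log2 ratio was 0.48, and 5 of the 49 were at least 2-fold higher, a share below the 13.7% of all genes. The highest was Oas3, an oligoadenylate synthetase, with 17 UMIs in the control and 104 in the transgenic section, with a log2 ratio of 2.76 (2.02 to 3.60). The lowest was Parp14, a mono-ADP-ribosyltransferase, with 383 and 288 UMIs and a log2 ratio of -0.26 (-0.49 to -0.04). The widely used interferon marker Mx1 was not analysed here. These genes do not form a uniform block, since their log2 ratios ran from 2.76 to -0.26. Of the 10 that were lower in the transgenic section, only 2 had an interval below 0.

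Rsad2, which encodes the antiviral enzyme viperin, is among the listed targets that were at least 2-fold higher. It had 204 UMIs in the control and 373 in the transgenic section, with a log2 ratio of 1.02 (0.77 to 1.27). Unlike the members it was clustered in the transgenic tissue, with a Moran's I of 0.027 in the control and 0.376 in the transgenic section. In transgenic spots with an above-median share of erythroid UMIs, such as those of hemoglobin, Rsad2 stood at 42.4 CPM (37.4 to 48.0), and in the other spots at 17.0 CPM (14.1 to 20.3). In the control the same split gave 13.6 and 14.8 CPM. Isg20, an exonuclease gene of the same list chosen after its values were seen, behaved alike, with 27.0 CPM (23.0 to 31.5) and 5.61 CPM (3.99 to 7.68) in the transgenic spots. In the control spots it had 4.91 and 4.30 CPM (2.94 to 6.07 in the erythroid-poor spots). In the erythroid-poor spots the intervals of the sections overlapped for both genes, with Rsad2 at 12.1 to 17.8 CPM in the control. The erythroid list itself summed to 2145 CPM in the control section against 20389 CPM in the transgenic section. The 8 members did not follow it, at 195 CPM (184 to 207) in the erythroid-rich and 191 CPM (180 to 201) in the other transgenic spots.

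**Figure D3:**
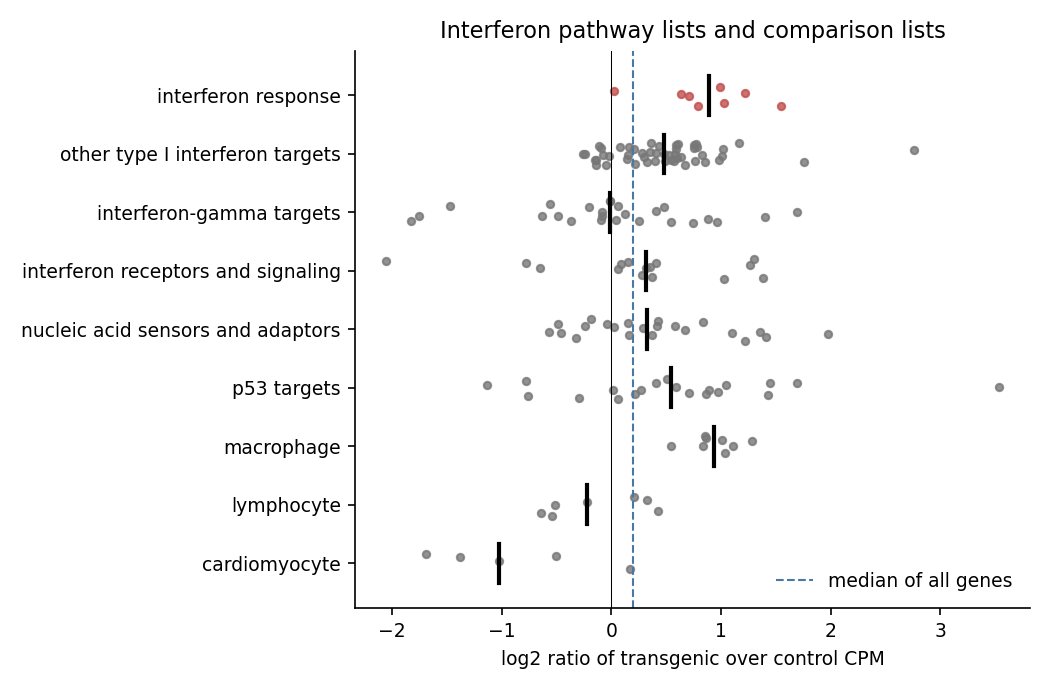
Log2 ratios of transgenic over control CPM for the members (top row, red) and for lists of related genes and comparison lists (gray), 1 point per gene with at least 20 UMIs. Black bars are list medians and the dashed line is the median of all genes, 0.20. The members and the macrophage genes lie wholly to the right of 0, with medians of 0.89 and 0.93, while interferon-gamma targets fall on both sides with a median of -0.01.

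Genes listed as targets of interferon-gamma, the cytokine of T and natural killer cells, split into both directions. The list does not set a response to interferon-gamma apart from one to type I interferon, since it holds genes such as Cxcl10 that both induce. Of 25 such genes with at least 20 UMIs, 12 were higher and 13 lower (9 higher with TMM factors), against 63.2% of all genes higher (52.4% with TMM factors). Of their intervals 6 lay above 0 and 6 below, against 39.4% and 17.0% of all genes, and the median log2 ratio was -0.01, which differed by -0.21 from that of all genes. The highest was Irf8, a transcription factor of macrophages and other myeloid cells, with 158 UMIs in the control and 460 in the transgenic section, with a log2 ratio of 1.69 (1.43 to 1.96). The lowest was Cxcl9, a chemokine that attracts T cells, with 118 and 30 UMIs and a log2 ratio of -1.83 (-2.45 to -1.24). Cxcl10, a chemokine induced by both kinds of interferon, had 40 and 28 UMIs, with a log2 ratio of -0.36 (-1.12 to 0.37) that did not depart from 0 at this depth.

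Of 15 receptor and signaling genes, 12 were higher in the transgenic section (10 with TMM factors), against 63.2% of all genes (52.4% with TMM factors), and the median log2 ratio was 0.32. Their sum went the other way, from 1028 CPM in control to 793 CPM in transgenic tissue, a log2 ratio of -0.38 (-0.41 to -0.34). Irf9, the DNA-binding partner of Stat2 in ISGF3, had 694 UMIs in the control and 779 in the transgenic section, with a log2 ratio of 0.32 (0.17 to 0.47). The highest of this list was Ifnlr1, a subunit of the interferon-lambda receptor, at 1.38 (0.65 to 2.15) from 23 and 54 UMIs, and the lowest was Ifngr2, a subunit of the interferon-gamma receptor, at -2.05 (-2.17 to -1.94) from 3277 and 711 UMIs.

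Among 22 nucleic acid sensors and adaptors with at least 20 UMIs, 15 (68.2%) were higher (13 with TMM factors), which is near the 63.2% of all genes (52.4% with TMM factors). Their median log2 ratio was 0.33, while the sum of the whole list was level at 674 CPM in both sections. Cgas, the cytosolic DNA sensor, was the lowest, with 33 UMIs in the control and 20 in the transgenic section, with a log2 ratio of -0.57 (-1.45 to 0.27) whose interval spans 0. Its adaptor STING, listed under the symbol Tmem173, had 114 and 137 UMIs, with a log2 ratio of 0.42 (0.05 to 0.79). That interval holds the median of all genes, 0.20, and its lower end is smaller than the shift of about 0.16 with TMM factors. The highest was Enpp1, which breaks down the messenger made by cGAS, with 69 and 244 UMIs and a log2 ratio of 1.97 (1.58 to 2.38).

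The interferons themselves were scarce in both sections. The 17 ligand genes measured summed to 314 UMIs or 21.8 CPM in the control section against 292 UMIs or 22.5 CPM in the transgenic section, with a log2 ratio of 0.05 (-0.19 to 0.28). Only 10 had at least 20 UMIs over both sections. Of these, 3 were higher and 7 lower (1 higher with TMM factors), against 63.2% of all genes higher (52.4% with TMM factors). Their median log2 ratio was -0.14. No interval was clear of 0, against 39.4% of all genes with an interval above 0 and 17.0% below. Ifnz, an interferon-zeta gene, held 136 of these UMIs in the control and 152 in the transgenic section, and the interferon-gamma gene Ifng had 13 in each. The other ligands, which were 11 interferon-alpha genes (Ifna2, Ifna4, Ifna5, Ifna7, Ifna9 and Ifna11 to Ifna16), Ifnab, Ifne, Ifnl2 and Ifnl3, had 2 to 19 UMIs in each section. The alpha genes are close copies of each other, so their single counts are uncertain, and Ifnb1 was not analysed here. A difference in ligand RNA between the sections was thus not detectable at this depth.

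Of 20 targets of p53, which responds to DNA damage, 16 were higher (14 with TMM factors), against 63.2% of all genes (52.4% with TMM factors), and their median log2 ratio was 0.55. They ran from Sesn1 at -1.13 (-1.25 to -1.02) to Cdkn1a, which blocks the cell cycle, at 3.54 (3.43 to 3.65) from 726 and 7598 UMIs. Spots were also split by their share of the summed p53 target UMIs, of which Cdkn1a gave 7598 of 25190 in the transgenic section. Transgenic spots with an above-median share of p53 target UMIs had 186 CPM (176 to 197) of the members, and the other spots had 199.7 CPM (189 to 211). In the control section these values were 102 and 106 CPM. A link between the members and the p53 targets was not tested.

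Markers of several cell types differed between the sections too. All 8 macrophage markers were higher in the transgenic section, also with TMM factors, against 63.2% of all genes (52.4% with TMM factors). The counting interval lay above 0 for 7 of them, against 39.4% of all genes. They ran from Adgre1 at 0.55 (-0.09 to 1.19) to Cd163 at 1.28 (1.09 to 1.48). Their sum was 315 CPM in the control section against 621 CPM in the transgenic section. The members had 0.331 UMIs for each macrophage UMI in the control and 0.311 in the transgenic section. In such pooled tissue, more cells of a type and more RNA in each cell cannot be told apart. The 4 monocyte and neutrophil markers summed to 15.9 and 33.3 CPM, led by the monocyte receptor Ccr2 at 2.35 (1.93 to 2.79), while the lowest, S100a8, stood at 0.02 (-0.63 to 0.66). The 8 lymphocyte markers summed to 17.3 CPM in both sections, from Nkg7 at -0.64 (-1.47 to 0.16) to Cd3e at 0.43 (-0.27 to 1.14) among those with at least 20 UMIs. Siglech, which marks plasmacytoid dendritic cells, the main makers of interferon-alpha, had 9 and 12 UMIs. The part of these cell types in the difference between the sections was not tested.

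Fibroblast markers had a median log2 ratio of 0.74, from Gsn at 0.00 to Tcf21 at 2.01. Endothelial markers had a median of 0.04 (-0.12 with TMM factors), from Kdr at -0.92 to Pecam1 at 0.46, and mural markers had a median of 0.00 (-0.16 with TMM factors), from Myh11 at -0.61 to Tagln at 0.63. Cardiomyocyte markers had a median of -1.03, from Myh6 at -1.69 to Tnnt2 at 0.17. The 4 erythroid markers were all higher, against 63.2% of all genes, from Alas2 at 3.08 to Hbb-bt at 3.53. The sum of the members was higher too, while 4 of the 5 cardiomyocyte markers were lower. These 4 had intervals below 0, against 17.0% of all genes. Between 2 sections any list is higher or lower, so a shared direction carries no finding. Over spots, the Pearson correlation of the summed members with the cardiomyocyte markers was 0.02 in the control and 0.21 in the transgenic section. With the erythroid markers it was -0.06 and -0.16. This was not particular to the members. In the transgenic section Lgals3bp, one of the other type I targets, had 0.20 with the cardiomyocyte, -0.16 with the erythroid and 0.21 with the macrophage markers. Some targets went the other way, such as Rsad2 at -0.62 and Isg20 at -0.64 with the cardiomyocyte markers. The part of spot depth in these correlations was not tested.

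Within each section, spots were also split at the median share of each list or, for the sparse ligand, lymphocyte and monocyte and neutrophil lists, by whether they held a UMI of it. Spots above the median of macrophage markers had 107 CPM (99.4 to 115) of the members in the control section against 195 CPM (185 to 206) in the transgenic section, and the other spots had 101 CPM (94.1 to 109) and 190 CPM (179 to 201). For this macrophage split the intervals of the richer and the poorer spots of the same section thus overlapped. Each split is relative to its own section. In the poorer spots the macrophage markers themselves still had a median log2 ratio of 1.23. Over spots, the Pearson correlation of the summed members with the macrophage markers was 0.04 in the control and 0.13 in the transgenic section. For cardiomyocyte markers the values were 100.2 CPM in richer and 108 CPM in poorer control spots, and 204 CPM (193 to 215) and 181 CPM (171 to 192) in the transgenic spots. For endothelial markers they were 112 and 96.7 CPM in the control, and 204 and 182 CPM in the transgenic section. Splitting by the other type I targets, which belong to the same pathway, gave 113 and 95.5 CPM in the control and 208 and 179 CPM in the transgenic section. Splitting by the interferon-gamma targets gave 115 and 93.4 CPM in the control and 214 and 171 CPM in the transgenic section. This was the widest gap of any list in either section. For the endothelial, other type I and interferon-gamma splits, richer and poorer spots had intervals that did not overlap in either section. In the transgenic section this also held for the cardiomyocyte and plasmacytoid dendritic splits. The plasmacytoid dendritic list was Siglech, Bst2 and Tcf4, and Bst2 is also one of the other type I targets. Bst2 gave 1104 of the 2485 UMIs of this list in the transgenic section. This split thus sorts spots in part by an interferon target and does not single out that cell type. Over all 15 lists used to split the spots, control values lay between 93.4 and 115 CPM and transgenic values between 171 and 214 CPM.

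**Figure D4:**
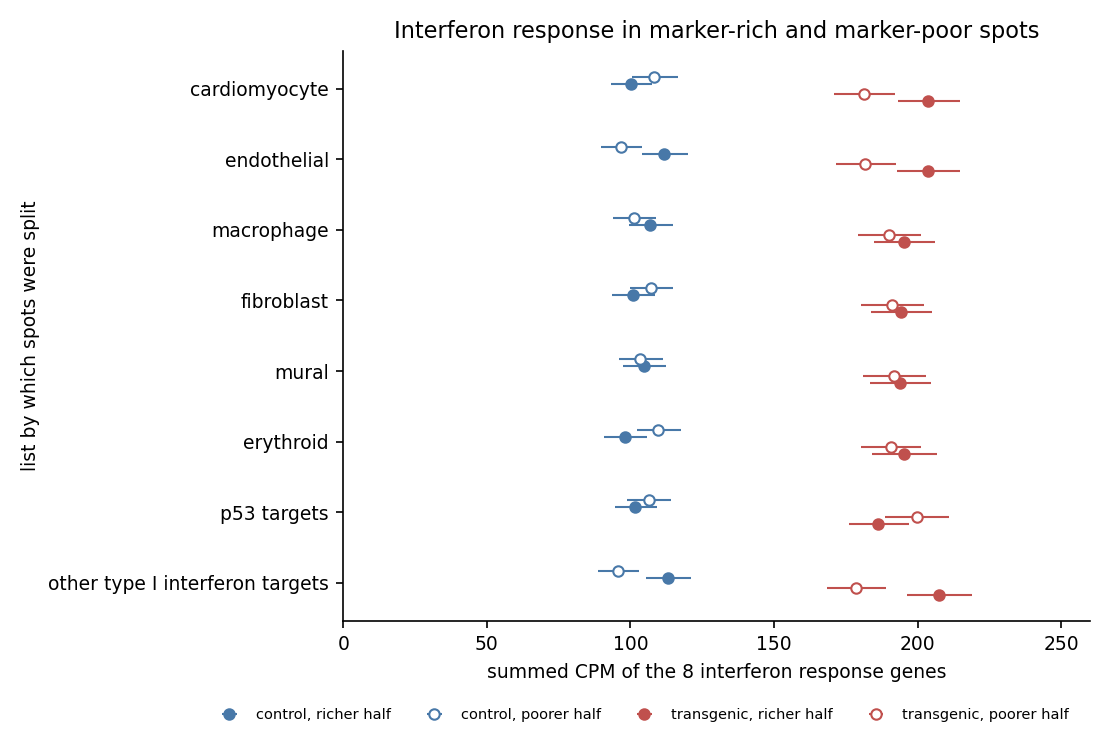
Summed CPM of the 8 members in spots with a higher (filled) and a lower (open) share of each list, for the control (blue) and the TOP2B transgenic section (red). Bars are exact Poisson 95% intervals. The transgenic points lie between 179 and 208 CPM and the control points between 95.5 and 113 CPM for the splits drawn, and the gap between sections is wider than the gap between the spots within a section.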

How the data were processed

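Visium CytAssist FFPE heart sections of 1 control and 1 TOP2B transgenic mouse were cut at 5 μm. Per gene and tissue spot, the deposited values are raw UMI counts that were made with Space Ranger 2.0.0 per the file headers. The submitters' processing notes name bcl2fastq, Space Ranger and the builds GRCm39 and mm39. RefSeq promoter windows were on GRCm38.p6 and were matched by symbol. Moran's I is a score per gene that the authors deposited, used as given.

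Counts were summed per section and divided by its total. Intervals were exact Poisson for sums, exact conditional binomial for ratios and Clopper–Pearson for shares, at 95%, and they cover counting error only. Genes needed at least 20 UMIs over both sections to be compared. The script of intervals was tested on simulated data. Barcodes mark array positions, and 725 occurred in both sections. The section totals give the members 43 to 840 UMIs each, which limits the precision of their ratios.

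The members and lists were chosen with earlier results of these data known. Named genes were all members, the highest and lowest gene of each list, all ligands with a UMI, well-known pathway genes, and, by Pearson correlation of log2(UMIs per 10000 + 1) over spots, the 5 genes most like the summed members in each section. Alternatives were edgeR 4.0.16 TMM factors and DESeq2 1.42.0 size factors (R 4.3.3), used only for scaling, totals without the 50 most abundant genes, subsets of spots, spot means of UMIs per 10000, a pseudocount of 1 CPM, and minimums of 1 or 200 UMIs for the lists. The DESeq2 factors were 1 for both sections and so left the raw sums unscaled. Python 3.11.15, numpy 2.4.6, scipy 1.17.1, pandas 2.3.3 and matplotlib 3.10.9 were used. A pathway gene that the naming rule covers is not reported here. The p values that came with Moran's I were left aside.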

Additional observations from a re-analysis of the deposited data

How the results depend on the processing

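The log2 ratio of the summed members was 0.89 by section totals. It was 0.73 with TMM factors, 0.74 with DESeq2's size factors and 1.02 in the 50% of spots richest in cardiomyocyte markers, and it kept its direction under every alternative run. DESeq2's size factors came out as 1 for both sections, so the 0.74 is the ratio of summed UMIs without scaling by section totals. Leaving out each quadrant of a section in turn gave 0.82 to 0.98. Both scaling alternatives lowered the median of all genes, from 0.20 to 0.05. They shift every log2 ratio by the same amount, so the members' median stayed 0.69 above it by construction. The members' median ranged from 0.74 to 0.98 over the alternatives. The number of members higher was 8 or 7, and Stat2 was the member lower under 5 of them (both scaling factors, the 50% of spots poorest in macrophage markers, the mean over spots, and section totals that leave out the 50 most abundant genes). Stat2 ranged from -0.22 to 0.21, and Zbp1, the sparsest member, from 0.25 in the cardiomyocyte-rich spots to 1.31. Thinning lowered the share of spots with any member from 64.2% to 54.3% in the control and from 89.1% to 77.8% in the transgenic section. The median of the other type I targets ranged from 0.32 to 0.52 and that of the interferon-gamma targets from -0.17 to 0.05. No paired analysis was possible because each genotype had 1 section and no result came from a test. With 1 animal per genotype, the spread between animals is unknown, and depth limits Zbp1, Cgas and the ligands most.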

Other observations

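The genes most like the summed members over spots differed between the sections. Over the 1256 control spots these were Igtp (Pearson r = 0.12), Bst2 (0.11), Metrnl (0.11), Myl1 (0.10) and Trim25 (0.10), of which Igtp, Bst2 and Trim25 are on the interferon lists. Over 923 transgenic spots they were Cd36 (0.24), Slc25a4 (0.24), Cox5b (0.23), Myom2 (0.23) and Fabp3 (0.23), genes of muscle, mitochondria and fatty acid use. The spots of a section share its library, the member counts per spot are sparse and the correlations are weak, so these names describe the sections and carry no finding. In the same transgenic spots the Pearson correlation with the erythroid list was 0.62 for Rsad2 and 0.65 for Isg20, and it was 0.07 and 0.05 in the control spots.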
